A study of Arabidopsis thaliana with 8 samples.

Results

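PRX52, PRX22 and PRX23 are class III peroxidases and TAPX is the ascorbate peroxidase of the thylakoid membrane. These 4 genes were selected by name, with earlier results of these data known, and were read by 3 of the 22746 probe sets tested. A probe set is a group of short oligonucleotides that together read a transcript. The paper's supplement already lists PRX22, PRX23 and PRX52 among genes highly induced after NaCl in its transgenic plants. That list used limits on fold change and p of its own, which were not applied here. The paper also reports peroxidase activity in leaves as higher under NaCl in wild-type and in its overexpressing lines. That assay measured enzyme activity, not RNA, after a longer exposure to NaCl. PRX52 (AT5G05340, chromosome 5) and TAPX (AT1G77490, chromosome 1) have a probe set each. PRX22 (AT2G38380) and PRX23 (AT2G38390), which are neighbours on chromosome 2, share 1 probe set, so that signal from either gene cannot be told apart from signal of the other. All 3 probe sets were measured on every array and no filter on low values was applied.

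Whole seedlings of Arabidopsis, 14 days old and, as the labels state, grown in hydroponic culture, were profiled on 8 ATH1 arrays in 4 groups of 2. The wild-type was Col-0, and the other genotype was a homozygous Col-0 line carrying the rice serine hydroxymethyltransferase gene OsSHMT3 under the pENTCUP2 promoter, called OE. Each genotype was kept without NaCl (control) or given 150 mM NaCl for 24 h as the labels state, although a legend in the paper states another concentration. OE was represented by 1 transgenic line, for which the methods give both of 2 names, and the rice transcript was not analysed here. The methods describe RNA taken in triplicate and biological replicates for the experiments, whereas 2 arrays per group were used here, and whether these came from separate cultures is not stated for the arrays. The p-values therefore rest on the spread between these arrays, moderated over all probe sets, and that spread may be technical.

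Class III peroxidases are secreted enzymes of the cell wall and vacuole, encoded in Arabidopsis by a large gene family. They reduce hydrogen peroxide while oxidising phenolic compounds, including the monolignols from which lignin is polymerised, and can also generate reactive oxygen species. PRX52 has been linked to lignin formation in the Arabidopsis stem. Ascorbate peroxidases belong to another class, work inside the cell, and reduce hydrogen peroxide with ascorbate as the electron donor. TAPX does so at the thylakoid membrane of chloroplasts, where photosynthetic electron transport produces superoxide that superoxide dismutases turn into hydrogen peroxide, and the oxidised ascorbate is then restored by reductases that draw on glutathione or NADPH.

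PRX52 and the PRX22/PRX23 probe set rose after NaCl in OE. Neither passed the test after NaCl in wild-type in the main fit, although PRX52 did in some alternative fits. TAPX fell after NaCl in both genotypes, but in OE only just under the limit, and most fits with an array left out lost that call. Under NaCl both class III probe sets were higher in OE than in wild-type, and neither differed at the limit without NaCl. Values are on the log2 scale of the deposited table. Differences were tested with limma and are called at a Benjamini-Hochberg adjusted p under 0.05 over all 22746 probe sets. Whole seedlings were extracted, so a lower signal from fewer cells of a type and one from less RNA per cell cannot be told apart.

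**Figure D1:**
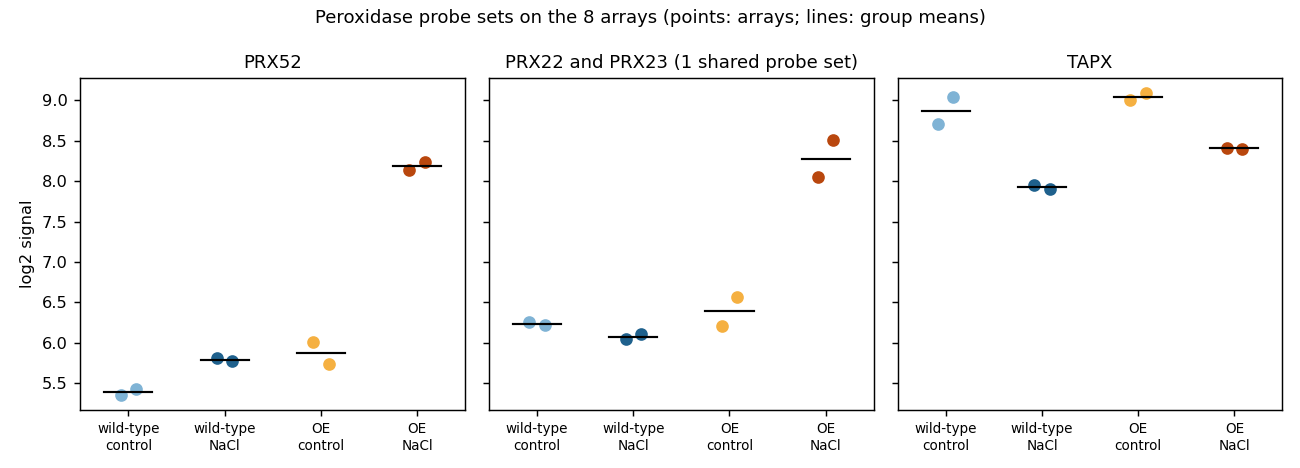
Log2 signal (vertical axis) of the probe sets for PRX52, PRX22 with PRX23, and TAPX on each of the 8 arrays, grouped by genotype and treatment (horizontal axis); points are arrays and lines are means of 2 arrays. PRX52 and PRX22/PRX23 are highest on both OE NaCl arrays, at 8.14 and 8.24 and at 8.05 and 8.51, and TAPX is lower on the NaCl arrays than on the control arrays of each genotype.

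PRX52 had a log2 signal of 5.36 and 5.42 on the wild-type control arrays and of 5.81 and 5.77 on the wild-type NaCl arrays. In OE it was at 6.00 and 5.73 in control and at 8.14 and 8.24 after NaCl. Both OE NaCl arrays therefore lay above the 6 others, the lower of them by 2.13, while the wild-type NaCl arrays lay between the OE control arrays. The log2 fold change after NaCl in OE was 2.32 (SE 0.14, 95% interval 1.98 to 2.66, adjusted p = 0.000302 from limma, n = 2), which is a 4.99-fold rise. In that comparison 4.88% of all probe sets were called higher and 2.33% lower. The wild-type response was 0.40 on the log2 scale (95% interval 0.06 to 0.74, adjusted p = 0.193), where 3.26% of all probe sets were called higher and 2.56% lower. This wild-type rise was called with array weights and in a fit to only the wild-type arrays. The difference between the OE and wild-type responses, the interaction, was 1.92 on the log2 scale (SE 0.20, adjusted p = 0.00493), and 1.23% of all probe sets had an interaction called higher and 0.422% lower. The interaction call was lost when 1 of 3 arrays was left out, namely WT_NaCl replicate 1 (1.94), WT_NaCl replicate 2 (1.90) or WT_control replicate 2 (1.89).

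Between genotypes PRX52 was 5.27-fold higher in OE than in wild-type under NaCl, a log2 fold change of 2.40 (95% interval 2.06 to 2.73, adjusted p = 0.000138 from limma, n = 2). There 4.12% of all probe sets were called higher and 4.92% lower. Without NaCl the OE arrays were also both above the wild-type arrays, by a mean of 0.48 (95% interval 0.14 to 0.81), and this difference had an adjusted p of 0.055. In that comparison 8.10% of all probe sets were called higher and 12.0% lower. The control difference was called when OE_control replicate 2 was left out (0.62, adjusted p = 0.0375) or when either OE_NaCl array was left out (0.48, adjusted p = 0.0296), and after centring every array on its median it was 0.73 (adjusted p = 0.0234). The rise in OE and the difference under NaCl rest on the same OE NaCl arrays and are not independent of each other.

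The PRX22/PRX23 probe set was at 6.26 and 6.21 on the wild-type control arrays and at 6.05 and 6.10 on the wild-type NaCl arrays. In OE it was at 6.21 and 6.57 in control and at 8.05 and 8.51 after NaCl. The lower OE NaCl array was 1.48 above every array of the other groups, and the OE control and wild-type control arrays overlapped. The signal rose 3.70-fold after NaCl in OE, a log2 fold change of 1.89 (SE 0.20, 95% interval 1.43 to 2.35, adjusted p = 0.00224 from limma, n = 2). The wild-type response of this probe set was -0.16 (95% interval -0.62 to 0.30, adjusted p = 0.845). Under NaCl it was 4.60-fold higher in OE than in wild-type, or 2.20 on the log2 scale (95% interval 1.74 to 2.66, adjusted p = 0.000766). Without NaCl the genotypes differed by 0.15 (95% interval -0.31 to 0.61, adjusted p = 0.586), an estimate that turned to -0.028 when OE_control replicate 2 was left out.

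For PRX22/PRX23 the interaction was 2.05 on the log2 scale (SE 0.28, 95% interval 1.40 to 2.70, adjusted p = 0.0161 from limma, n = 2). It was called in fewer fits than the rise within OE, as 5 of the 8 fits with 1 array left out lost the call. These were the fits without WT_NaCl replicate 1 (2.02, adjusted p = 0.121), WT_NaCl replicate 2 (2.08, adjusted p = 0.110), WT_control replicate 1 (2.03, adjusted p = 0.121), WT_control replicate 2 (2.07, adjusted p = 0.113) and OE_control replicate 1 (1.87, adjusted p = 0.0527). The rise in OE and the difference under NaCl were called in all 8 such fits for both class III probe sets. Fitted to only the 4 OE arrays, the rise of PRX22/PRX23 had an adjusted p of 0.062.

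TAPX was at 8.70 and 9.04 on the wild-type control arrays and at 7.96 and 7.90 on the wild-type NaCl arrays. In OE it was at 9.01 and 9.09 in control and at 8.42 and 8.40 after NaCl. NaCl and control arrays did not overlap in either genotype. The wild-type seedlings showed a 1.92-fold fall of TAPX after NaCl, or -0.94 on the log2 scale (SE 0.15, 95% interval -1.29 to -0.59, adjusted p = 0.0142 from limma, n = 2). This call was lost without WT_NaCl replicate 1 (-0.97, adjusted p = 0.151), WT_NaCl replicate 2 (-0.91, adjusted p = 0.176) or WT_control replicate 2 (-0.77, adjusted p = 0.110). In OE it fell 1.56-fold, a log2 fold change of -0.64 (95% interval -0.99 to -0.29) with an adjusted p of 0.0494, just under the limit.

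The fall of TAPX in OE remained called in only 1 of the 8 fits with an array left out, that without OE_NaCl replicate 1. Without WT_NaCl replicate 1 or 2 its adjusted p was 0.145, without WT_control replicate 1 or 2 it was 0.0676, and without OE_control replicate 1, OE_control replicate 2 or OE_NaCl replicate 2 it was 0.112, 0.101 and 0.0867. The log2 fold change itself stayed between -0.68 and -0.60. A difference between the responses was not shown, since the interaction of TAPX was 0.30 (SE 0.21, 95% interval -0.20 to 0.80, adjusted p = 0.623). OE exceeded wild-type by 0.18 in control (95% interval -0.17 to 0.53, adjusted p = 0.403) and by 0.48 under NaCl (95% interval 0.13 to 0.83, adjusted p = 0.105), and neither difference was called.

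**Figure D2:**
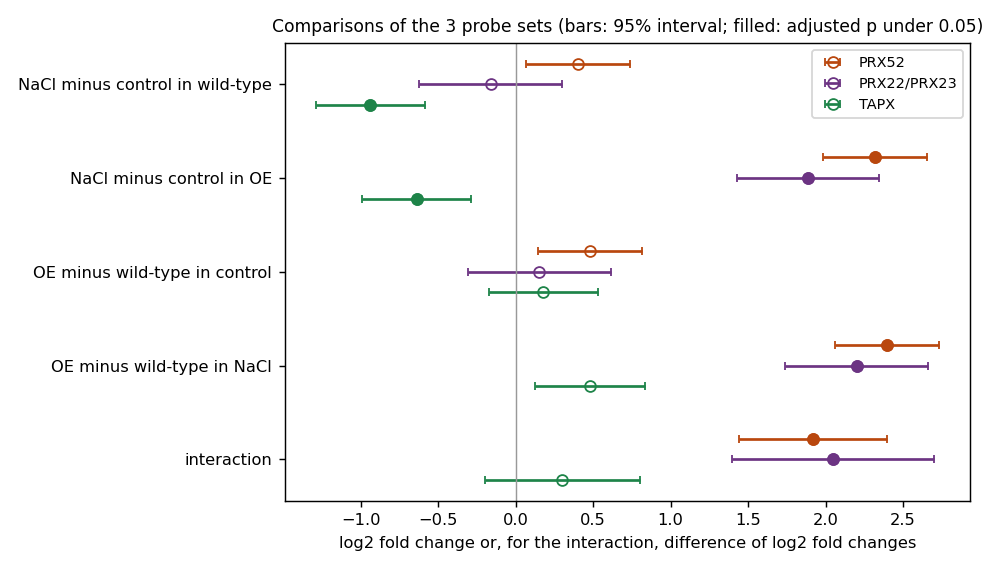
Log2 fold changes of the 3 probe sets in the 5 comparisons, with the interaction given as a difference of log2 fold changes (horizontal axis); bars are 95% intervals and filled points have an adjusted p under 0.05. PRX52 and PRX22/PRX23 are called after NaCl in OE (2.32 and 1.89), in OE against wild-type under NaCl (2.40 and 2.20) and for the interaction (1.92 and 2.05), and TAPX is called after NaCl in both genotypes (-0.94 and -0.64).

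Across the 8 arrays PRX52 and PRX22/PRX23 had a Pearson r of 0.962, a description of 4 groups of 2 arrays in which 1 group stands apart. TAPX had an r of -0.234 with PRX52 and of -0.087 with PRX22/PRX23. Among 2890 other probe sets that name 1 gene and whose group means span at least 1 on the log2 scale, the most similar to PRX52 were AT2G14095 (r = 0.989), AT3G43270 (r = 0.987), AT3G50400 (r = 0.983), AT3G53040 (r = 0.981) and AT3G18280 (r = 0.980). AT3G50400 had group means of 4.33 and 4.29 for wild-type without and with NaCl, of 4.58 for OE without NaCl and of 7.27 for OE with NaCl, so that OE NaCl was its highest group too. The probe sets most similar to PRX22/PRX23 were AT3G25640 (r = 0.993), JAL34, a jacalin-related lectin (r = 0.988), AT1G06000 (r = 0.987), AT4G10390 (r = 0.985) and AT1G54020 (r = 0.985). JAL34 was at 7.77, 7.76 and 7.73 in those first 3 groups and at 9.28 in OE NaCl. TAPX was most like AT4G19830 (r = 0.983), AKINBETA1, a regulatory subunit of the SnRK1 kinase (r = 0.976), AT2G35470 (r = 0.975), AT5G44680 (r = 0.966) and AT4G19430 (r = 0.965). AKINBETA1 had group means of 10.87 (control) and 10.02 (NaCl) for wild-type and of 11.22 and 10.37 for OE, so that it was lower after NaCl in both genotypes, as TAPX was.

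PRX52 and PRX22/PRX23 were set against the other class III peroxidases. Of 73 listed genes, 61 were measured on 58 probe sets, 3 of which are shared by a pair of listed genes. After NaCl in OE, 3 of the 58 were called higher and 5 lower, against 4.88% and 2.33% of all probe sets, with a median log2 fold change of -0.19 against 0.01 over all probe sets. PRX52 and PRX22/PRX23 had the highest log2 fold changes of the 58. As they were chosen with earlier results of these data known, this rank and the count called higher are not independent results. The third called, AT5G14130, rose by 0.77 (adjusted p = 0.0255 from limma, n = 2). Quantile normalization gave 5 higher and 5 lower. AT2G22420, whose difference was larger, had a log2 fold change of 1.14 that was not called (adjusted p = 0.0575). The family members that fell in OE were AT5G06730 by 1.54, AT5G15180 by 1.50, AT5G58390 by 1.34, AT5G39580 by 1.24 and AT5G47000 by 1.09 on the log2 scale. Only PRX52, PRX22/PRX23 and AT5G47000 remained called with each array left out in turn.

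After NaCl in wild-type, 2 of the 58 probe sets were called higher and 2 lower, against 3.26% and 2.56% of all. After median centring the counts were 0 and 3, and after quantile normalization 1 and 2. AT5G64120, annotated as peroxidase 71, rose by 1.02 on the log2 scale and AT4G33420 by 0.76, while AT2G37130 fell by 1.74 and AT4G36430 by 0.97. Of these only AT2G37130 stayed called with each array left out, and the others reached adjusted p-values of 0.273, 0.312 and 0.190 without WT_NaCl replicate 2 (AT5G64120, AT4G33420 and AT4G36430, limma, n = 2 with 1 array in that group). Together 12 of the 58 were called in either genotype and 0 in both, against 10.4% and 2.68% of all probe sets. At an unadjusted p under 0.05, 8 of the 58 differed after NaCl in wild-type and 18 in OE, against 17.3% and 23.9% of all. After NaCl the log2 fold change was positive for 20 of the 58 in OE and for 18 in wild-type, against 51.1% and 41.8% of all probe sets, and the wild-type median was -0.10 in the family and -0.05 over all.

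**Figure D3:**
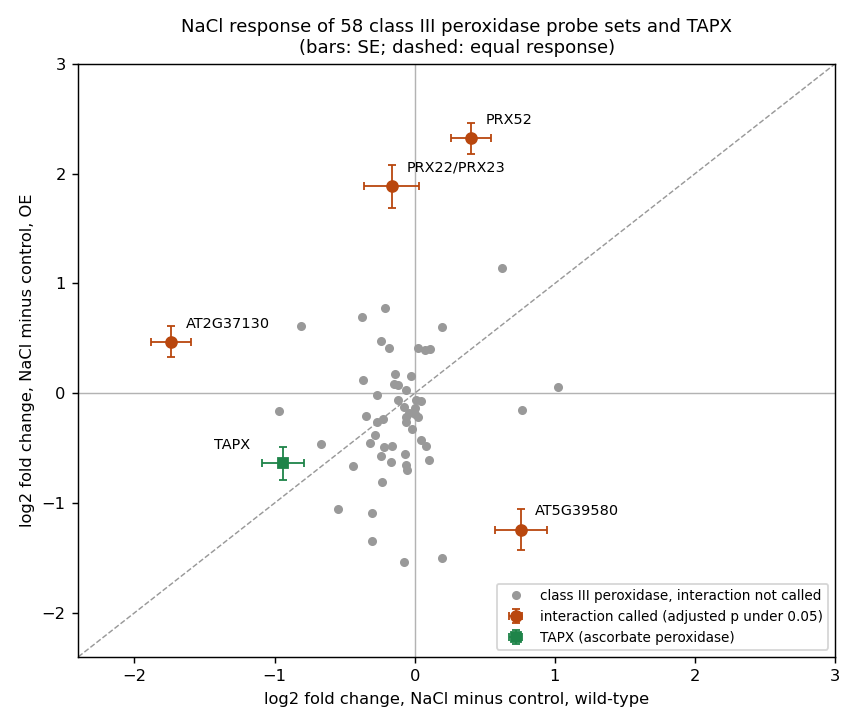
Log2 fold change after NaCl in wild-type (horizontal axis) and in OE (vertical axis) for 58 class III peroxidase probe sets and TAPX; coloured points have a called interaction, or are TAPX (square), and their bars are SE, and the dashed line marks equal responses. PRX52 (0.40 and 2.32) and PRX22/PRX23 (-0.16 and 1.89) lie at the top of the plot, AT2G37130 (-1.74 and 0.47) at its left and AT5G39580 (0.76 and -1.24) at its lower right, and TAPX (-0.94 and -0.64) lies near the dashed line.

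The responses of 4 class III probe sets differed between genotypes by the interaction test, 3 with a higher response in OE and 1 with a lower one, against 1.23% and 0.422% of all probe sets. After quantile normalization they were 3 and 2. Beside PRX52 and PRX22/PRX23 the 4 called in the main fit were AT2G37130 and AT5G39580. As PRX52 and PRX22/PRX23 were chosen with earlier results of these data known, the count of 3 is not an independent result. AT2G37130 was at 10.89 and 11.03 on the wild-type control arrays and at 9.22 and 9.23 on the wild-type NaCl arrays. In OE it was at 10.11 and 9.86 in control and at 10.48 and 10.42 after NaCl. Its groups did not overlap, its interaction was 2.20 (SE 0.20, adjusted p = 0.00272 from limma, n = 2), and unlike that of PRX52 and PRX22/PRX23 this call held with each array left out (adjusted p up to 0.0363). AT5G39580 was at 4.41 and 4.12 on the wild-type control arrays and at 4.96 and 5.07 on the wild-type NaCl arrays, and at 6.01 and 5.69 on the OE control arrays and at 4.76 and 4.46 on the OE NaCl arrays. Its interaction was -2.00 (SE 0.26, adjusted p = 0.0144), a pattern opposite in sign to that of PRX52, with adjusted p-values of 0.0919 and 0.115 without WT_NaCl replicates 1 and 2 and of 0.0631 and 0.101 without WT_control replicates 1 and 2.

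Without NaCl 14 of the 58 probe sets (24.1%) differed between genotypes, against 4580 of all 22746. In OE 10 of the 58 probe sets were higher than in wild-type and 4 were lower, against 8.10% and 12.0% of all probe sets, and neither PRX52 nor PRX22/PRX23 was among them. The higher ones were AT5G64120 (1.90 on the log2 scale), AT5G06730 (1.88), AT5G58390 (1.65), AT5G39580 (1.59), AT2G18980 (1.44), AT1G44970 (1.36), AT5G64100 (1.26), AT2G35380 (1.23), AT5G58400 (0.90) and PRXR1 (0.57). AT5G58390 and AT5G58400 are neighbours on chromosome 5. So are AT5G64100, AT5G64110 and AT5G64120, of which AT5G64110 was not called (0.24, adjusted p = 0.508 from limma). The lower ones were AT2G37130 (-0.98), AT3G50990, annotated as peroxidase 36, which in the seed coat acts on the wall of mucilage cells (-1.04), the probe set shared by AT4G37520 and AT4G37530 (-1.19) and AT2G22420 (-1.76). Only AT5G64120 and AT5G39580 were called in all 8 fits with an array left out. The median difference was 0.32 in the family and -0.02 over all probe sets. Median centring raised every difference in this comparison by 0.26 and called 21 of the family higher and 4 lower.

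Under NaCl, 9 of the 58 were higher in OE than in wild-type and 4 lower, against 4.12% and 4.92% of all. Among the higher ones PRX52 and PRX22/PRX23 differed most, followed by AT1G68850 at 1.87, AT4G25980 at 1.64 and AT2G37130 at 1.23 on the log2 scale, and these 5 were called in all 8 fits with an array left out. AT5G64120 (0.93), AT4G36430 (0.81), PRXR1 (0.71) and AT1G71695 (0.70) were also called higher, and each lost its call without WT_NaCl replicate 1 or 2. AT4G33420 (-0.72), AT2G22420 (-1.24), AT3G50990 (-1.26) and AT5G15180 (-1.67) were lower, and likewise lost their calls without 1 of those arrays. Over all 5 comparisons the family had 43 calls on 24 probe sets, of which 12 calls held with each array left out, and 4 of those 12 were of PRX52 and PRX22/PRX23. Of all probe sets 27.2% were called in any of the 5 comparisons, and 18.6% of their calls held. Both OE NaCl arrays lay above all 6 other arrays for 6 of the 58 probe sets, or 10.3%, against 6.18% of all probe sets. The gap between these arrays and the others was 2.13 for PRX52, 1.48 for PRX22/PRX23 and at most 0.42 for the other 4. PRX52 and PRX22/PRX23 were not chosen independently of these data.

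TAPX was first set against the other listed ascorbate peroxidases, which share its substrate. Of 8 listed ascorbate peroxidases only TAPX and SAPX, the ascorbate peroxidase of the chloroplast stroma, were measured on a probe set naming 1 gene. SAPX was at 8.43 and 8.42 on the wild-type control arrays, 8.80 and 8.92 on the wild-type NaCl arrays, 8.52 and 8.53 on the OE control arrays and 8.78 and 9.09 on the OE NaCl arrays. NaCl arrays lay above control arrays in each genotype, the opposite order to TAPX, but neither difference was called. It was 0.44 for wild-type (95% interval 0.09 to 0.78, adjusted p = 0.166 from limma, n = 2) and 0.41 for OE (95% interval 0.07 to 0.76, adjusted p = 0.145).

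Of 10 listed reductases that restore ascorbate and glutathione, 3 were measured. They were listed by function, and whether each acts in the chloroplast, as TAPX does, was not examined here. GR1, a glutathione reductase, was at 8.54 and 8.45 in wild-type control and at 9.43 and 9.57 after NaCl, and in OE at 8.22 and 8.46 in control and at 9.05 and 9.03 after NaCl. It rose after NaCl, with a log2 difference of 1.01 for wild-type (SE 0.14, limma's adjusted p = 0.00859, n = 2) and one of 0.70 for OE (adjusted p = 0.0316). The wild-type call was lost without either WT_NaCl array or either WT_control array (adjusted p up to 0.143), and the OE call was lost without either array of wild-type NaCl or wild-type control, or without OE_control replicate 1 or OE_NaCl replicate 2 (adjusted p up to 0.100). The OE call was also lost after median centring (0.53, adjusted p = 0.0828), quantile normalization (0.58, adjusted p = 0.0552), array weights (adjusted p = 0.258), a fit to only the 4 OE arrays (adjusted p = 0.295), an unmoderated fit (adjusted p = 0.0565) and a replicate block (adjusted p = 0.0564). GR, the glutathione reductase AT3G54660, had responses of 0.51 for wild-type (adjusted p = 0.119) and 0.00 for OE on the log2 scale, and ATMDAR2, a monodehydroascorbate reductase, had responses of -0.03 and 0.38 (adjusted p = 0.975 and 0.184).

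**Figure D4:**
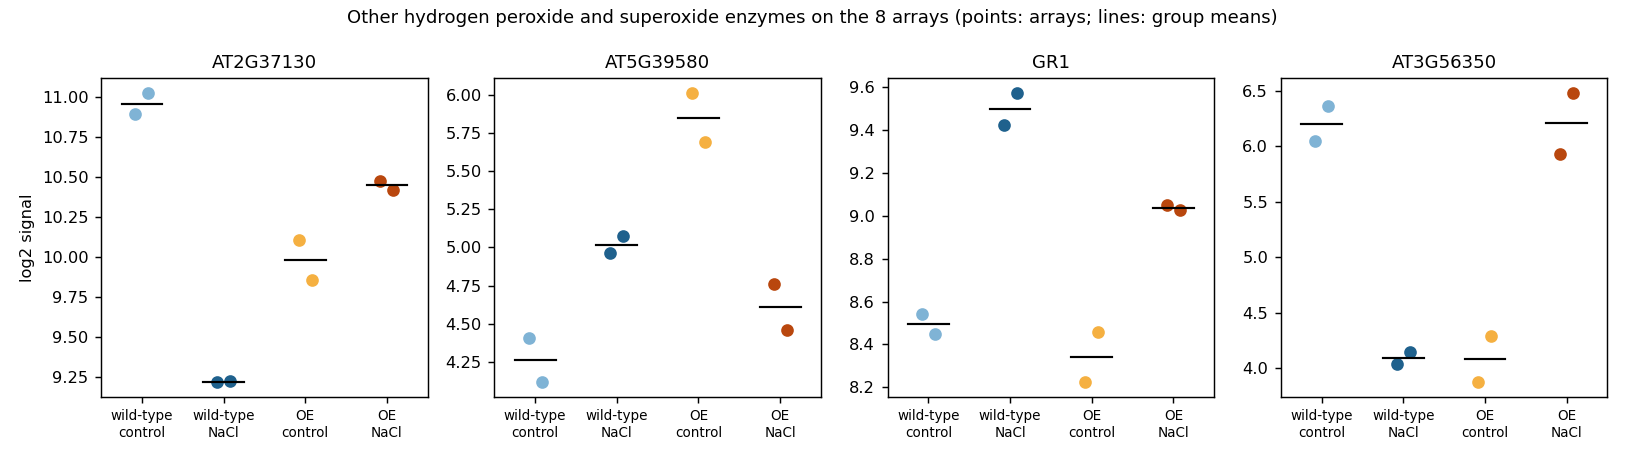
Log2 signal (vertical axis, scaled separately in each panel) of AT2G37130 and AT5G39580 (class III peroxidases), GR1 (glutathione reductase) and AT3G56350 (superoxide dismutase list) on each array by group (horizontal axis); points are arrays and lines are means of 2 arrays. GR1 is higher after NaCl in both genotypes, by 1.01 and 0.70, while AT3G56350 is near 6.20 in wild-type control and OE NaCl and near 4.09 in the other groups.

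Few of the other enzymes that make or remove hydrogen peroxide were named in the probe set annotation used here. It names no gene for 8730 of the 22746 probe sets, so a listed gene may still be read by a probe set without a name. Of 8 listed superoxide dismutases, which turn superoxide into hydrogen peroxide, only AT3G56350 had a probe set that names it. It was at 6.04 and 6.36 in wild-type control and at 4.04 and 4.15 in wild-type NaCl, and at 3.88 and 4.29 in OE control and 5.93 and 6.48 in OE NaCl. The wild-type response was -2.11 on the log2 scale (limma's adjusted p = 0.00333, n = 2; 0.0503 without WT_control replicate 2) and the OE response 2.12 (adjusted p = 0.00301). Their difference, the interaction, was 4.23 (adjusted p = 0.00154). As with PRX52 and PRX22/PRX23 its signal under NaCl was higher in OE than in wild-type (2.11, adjusted p = 0.00212), but it was as high in wild-type control, which those probe sets were not. Of 9 peroxiredoxins, thiol peroxidases, 3 were measured, as were 3 of 10 NADPH oxidases, which produce superoxide at the plasma membrane, and HCT of 20 genes of the lignin pathway. None of these 7 was called in any of the 5 comparisons by limma, and at an unadjusted p under 0.05 the numbers past the limit were at most 1 per list and comparison. None of the 3 catalases and 8 glutathione peroxidase-like genes was read by a probe set naming it alone.

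Marker genes were examined beside these results, again only where a probe set names them. Of 6 leaf markers only PRK, phosphoribulokinase of the Calvin cycle, was measured, with group means of 11.54 and 10.94 for wild-type without and with NaCl, and of 11.93 and 11.08 for OE. PRK fell with TAPX in both genotypes, by 0.60 (adjusted p = 0.0448) and 0.85 (adjusted p = 0.0119) on the log2 scale (limma, n = 2), and its part in the fall of TAPX was not tested. Of 6 root markers only EXPA7, an expansin of root hair cells, was measured, at 4.54, 4.65, 5.37 and 4.87 in the same order. It was higher in OE than in wild-type without NaCl, by 0.83 (adjusted p = 0.0267), where 10 class III probe sets were higher too, and its part in that was not tested.

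None of 6 seed markers was measured on a probe set of its own, so a list of 17 seed storage and oil body genes, added after the data were seen, was used, of which 9 were measured. After NaCl 7 of the 9 rose in OE (4.88% of all probe sets), as PRX52 and PRX22/PRX23 did, and 6 fell in wild-type (2.56% of all), where those probe sets were not called. Under NaCl 7 were higher in OE than in wild-type (4.12% of all), without NaCl 4 were lower in OE (12.0% of all), and 7 had a higher response in OE by the interaction test (1.23% of all). The log2 of their summed signal was 11.60 and 11.65 on the wild-type control arrays and 10.01 on both wild-type NaCl arrays, and it was 10.96 and 10.83 on the OE control arrays and 12.76 and 12.73 on the OE NaCl arrays. The lowest group mean of the list was 3.17, of AT2G18540 in OE control. The part of seed tissue in the rise of PRX52 and PRX22/PRX23 was not tested.

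The medians of the wild-type arrays ranged from 6.27 to 6.33 and those of the OE arrays from 6.00 to 6.32. Centring each array on its median moved all log2 differences by -0.17 after NaCl in OE, by 0.26 and 0.12 between genotypes without and with NaCl, and by -0.14 for the interaction, and no call of the 3 probe sets was lost by it. The SD over probe sets of the difference between replicate arrays was 0.213 and 0.116 for wild-type without and with NaCl, and 0.430 and 0.551 for OE, so a spread shared by all groups is narrower than that of the OE groups and wider than that of the wild-type groups. With array weights, which follow these differences, the rise of PRX52 in wild-type had an adjusted p of 0.00778 and the fall of TAPX in OE one of 0.329. The number of arrays limits the precision.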

How the data were processed

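RNA of 8 whole-seedling samples was hybridised to ATH1 arrays. The deposited values are on a log2 scale, 1 per probe set and array, and per the labels were made by the authors with Affymetrix Expression Console, whose version and summarization method are not given in the sources used here; the methods name an R package for the scanned files. The labels name Trizol for RNA and the methods a column kit. The methods' own limits on P and fold change were not used. No further normalization was applied. Of 22810 probe sets, 64 controls were left out and 22746 tested. The platform annotation names 1 gene for 13513 of them (13436 matched to the TAIR10.1 gene table), several for 503 and none for 8730.

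With limma 3.58.1 (lmFit and eBayes) in R 4.3.3, 1 mean was fitted for each group, with 1 residual spread for all 8 arrays. Benjamini-Hochberg adjustment covered every tested probe set, and the limit was 0.05. The interaction was the OE response to NaCl less the wild-type response. The procedure was run on simulated data in which all groups had the same spread, unlike the groups here. A gene of a list was taken as measured if a probe set named no other gene, or only other class III peroxidases. Genes read only by probe sets without a name count as not measured here. The members and the gene lists were chosen with earlier results of these data known. Named were the 4 genes, every class III or ascorbate peroxidase called in any comparison, at most 2 called genes per other list and comparison, and the 5 most similar genes per probe set. AT2G22420 after NaCl in OE, AT5G64110, SAPX, GR, ATMDAR2, HCT and AT2G18540 were named after their values were seen.

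Same-numbered arrays of different groups deviated from their group means with correlations between -0.205 and 0.181, and the main fit did not pair samples by replicate number. These values cannot exclude a batch shared by same-numbered arrays. Alternatives were other samples in the fit, moderation, normalization, filter, array weights, a replicate block and each array left out. No class III gene had more than 1 probe set of its own, so averaging probe sets of a gene gave no other value.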

Additional observations from a re-analysis of the deposited data

Results flagged for a closer look

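The NaCl responses of 4 class III probe sets differed between OE and wild-type by limma's interaction term (n = 2 arrays per group). The differences were 1.92 on the log2 scale for PRX52, 2.05 for PRX22/PRX23, 2.20 for AT2G37130 and -2.00 for AT5G39580. Only that of AT2G37130 was called with every array left out in turn.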

How the results depend on the processing

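Over the 3 probe sets, 5 comparisons and all alternatives, 203 values kept their direction and side of the limit, 24 lost the call, 9 gained it and 1 turned its sign, PRX22/PRX23 in OE against wild-type without NaCl (-0.028 without OE_control replicate 2). Adjusted p-values below are from limma.

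With only the 4 arrays compared, the rise of PRX22/PRX23 in OE was 1.89 (adjusted p = 0.062), the fall of TAPX in OE -0.64 (0.310) and the PRX52 response in wild-type 0.40, now called (0.0136). With array weights TAPX in OE was -0.64 (0.329), and PRX52 was called in wild-type at 0.40 (0.00778) and in OE against wild-type without NaCl at 0.48 (0.0484). That PRX52 difference was also called above the median filter at 0.48 (0.0311), after median centring at 0.73 (0.0234) and after quantile normalization at 0.66 (0.0321). With no moderation the PRX22/PRX23 interaction was 2.05 (0.108) and TAPX in OE was -0.64 (0.0878). With the replicate block TAPX in OE was -0.64 (0.0779), class III calls in wild-type were 2, GR1 in OE was 0.70 (0.0564), and no other call of the 3 probe sets changed. In the 4 NaCl arrays alone, 664 probe sets differed between genotypes with the replicate block and 723 with the numbers crossed, a pairing chosen after seeing the data.

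With each array left out, PRX52 ran from 0.37 to 0.43 in wild-type, 2.18 to 2.46 in OE, 0.34 to 0.62 between genotypes without NaCl, 2.35 to 2.45 under NaCl and 1.78 to 2.06 for the interaction. PRX22/PRX23 ran from -0.19 to -0.13, 1.66 to 2.12, -0.028 to 0.33, 1.97 to 2.43 and 1.82 to 2.28, and TAPX from -1.11 to -0.77, -0.68 to -0.60, 0.01 to 0.34, 0.45 to 0.51 and 0.13 to 0.47, in the same order.

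Class III calls in OE were 8, and 4 with array weights, 3 above the filter, 1 with only the 4 arrays, 3 unmoderated and 3 to 22 with an array left out. In wild-type they were 4, and 15, 16 (weights, 4 arrays), 2 (unmoderated) and 1 to 8. Without NaCl between genotypes they were 14, and 23 (weights), 6 (filter), 25 (centring), 3 (unmoderated) and 2 to 27. Under NaCl they were 13, and 8 (filter), 6 (4 arrays), 6 (unmoderated) and 5 to 26. For the interaction they were 4, and 2 unmoderated and 1 to 15. Over all probe sets, calls in OE were 1642, and 552 (weights), 180 (4 arrays), 904 (unmoderated) and 656 to 6018. In wild-type they were 1324, and 5854, 5899 and 258 to 2346. Without NaCl they were 4580, and 1605 (unmoderated) and 420 to 8696. Under NaCl they were 2057, and 964 (4 arrays), 1162 (unmoderated) and 563 to 7057. For the interaction they were 375, and 185 and 122 to 2294. The causes were not tested. The table holds no detection call, so how far each signal lies above background is unknown here.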
